A study of Mus musculus with 6 samples.

Results

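Among the transcription factors that establish and hold the acinar cell state, Ptf1a, Rbpjl, Bhlha15, Nr5a2, Gata4, Gata6 and Xbp1 were followed in islets of mice with short telomeres. The 7 genes were chosen by name, with earlier results of these data known. Each has 1 probe on the array that is listed for that gene alone, among 20204 genes with such a probe. Islets were purified after collagenase digestion from 3 wild-type and 3 mTR-/-G4 mice, which were male, 15 months old and of the C57BL/6 strain, and the RNA of each sample was hybridized to 1 exon array. mTR-/-G4 mice lack the telomerase RNA in every cell and were bred over successive generations without it, which leaves their telomeres short, while the wild-type mice keep the telomerase RNA and carry no other engineered allele in the labels. The comparison asks how gene expression differs between islets of these genotypes, which differ both in telomere length and in telomerase RNA. No telomerase-null mice with long telomeres are among the 6 samples, so telomere length and loss of telomerase RNA cannot be told apart. Each sample was taken as 1 mouse, and the p-values measure the spread between these samples.

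Acinar cells make up most of the exocrine pancreas and secrete digestive enzymes from zymogen granules. Ptf1a, a basic helix-loop-helix (bHLH) factor, binds the enzyme genes together with an E protein and either Rbpj or its acinar paralog Rbpjl, and this trimer, PTF1, also keeps up the genes of its own subunits. Nr5a2, Gata4 and Gata6 work beside PTF1, while Bhlha15 and Xbp1 enlarge the secretory machinery that carries the enzymes out of the cell.

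Of the 7 factors, Rbpjl rose in mTR-/-G4 islets and Bhlha15 fell, and the other 5 did not pass the test. A difference passed where it exceeded 1.5-fold with an unadjusted p under 0.05 in limma, the study's threshold. By this rule 1.94% of all genes were higher and 1.64% were lower, and a count of 1 of 7 in each direction is given against these shares with no test. The lowest Benjamini-Hochberg adjusted p among the factors in limma was 0.145, for Gata4. Of the 20204 genes, 0 had an adjusted p under 0.05, against 4471 with an unadjusted p under 0.05 in limma. All mTR-/-G4 samples were above all wild-type samples for 4 factors (Ptf1a, Rbpjl, Gata4 and Gata6), a pattern that 25% of all genes share. They were all below for Bhlha15, as for 12.2% of all genes, and the genotypes overlapped for Nr5a2 and Xbp1. Relative to the median of each array, Ptf1a and Gata6 overlapped as well, while Rbpjl, Gata4 and Bhlha15 did not. The median difference of the 7 factors was 0.19 on the log2 scale, beside 0.10 over all genes.

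**Figure D1:**
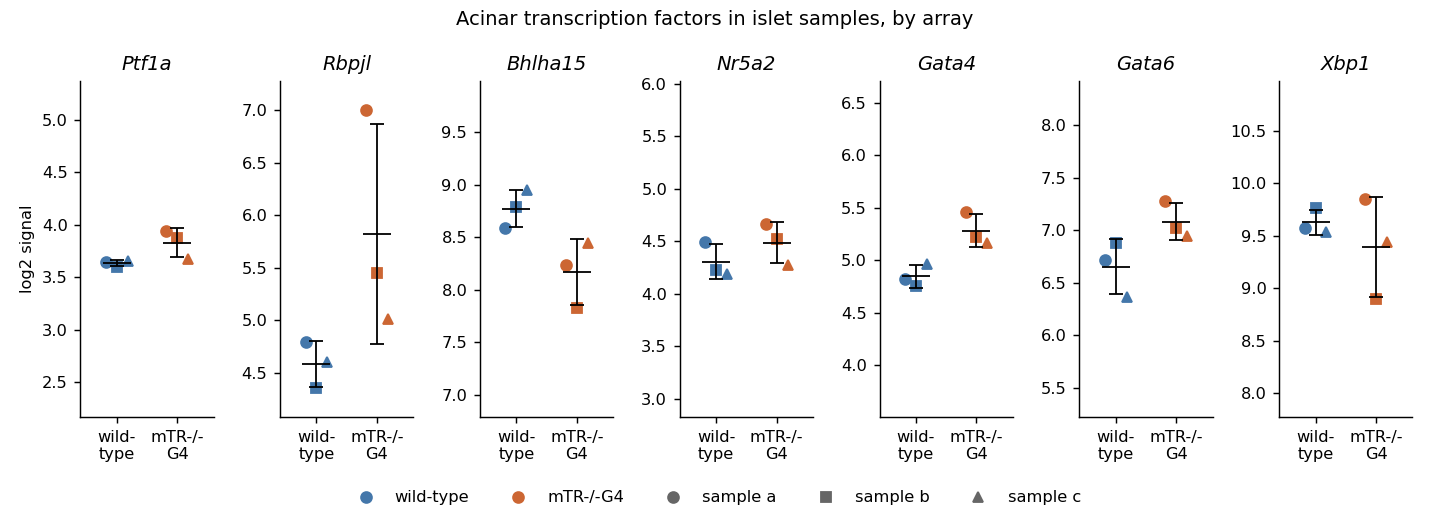
Log2 signal of the 7 acinar factors (y axis) in each wild-type and mTR-/-G4 sample (x axis), with points for single samples, horizontal bars for the mean and whiskers for 1 SD (n = 3). The panels span the same number of log2 units at different levels. Rbpjl lies between 4.36 and 4.79 in wild-type islets and between 5.01 and 7.002 in mTR-/-G4 islets, and Bhlha15 between 8.59 and 8.95 and between 7.83 and 8.45.

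The samples carried the signal of islets and, to an unequal extent, of acinar cells. The mean log2 signal of 11 islet markers, hormones and secretory granule genes such as Ppy and Iapp, was 12.19 ± 0.054 in wild-type samples, against 12.11 ± 0.090 in those of mTR-/-G4 mice (SD, n = 3 each), and none passed the test. Their median difference was -0.098, and after scaling the range of the arrays it was 0.82 with 4 of the 11 higher, so both the direction and the count of this list depended on the scaling. The mean of 13 digestive enzymes was 9.48, 8.53 and 8.38 in wild-type samples a, b and c and 10.93, 10.38 and 10.04 in mTR-/-G4 samples a, b and c. All 13 enzymes rose, and the enzyme mean did not overlap between the genotypes (difference 1.65, p = 0.1 by a two-sided exact permutation test, which with 3 samples in each group cannot give less). Whole islets were measured, so more acinar cells and more RNA per acinar cell cannot be told apart. The arrays also differed in range, since log2 signals had an interquartile range of 2.63 to 2.79 in wild-type samples and 2.56, 2.05 and 2.42 in mTR-/-G4 samples a, b and c. In parallel, genes brighter than the median gene had a median difference of -0.069 with 61.8% of them negative, and the dimmer genes had a median of 0.22 with 11.3% negative. Bhlha15, Gata6 and Xbp1 belong to the brighter genes and Ptf1a, Rbpjl, Nr5a2 and Gata4 to the dimmer ones, so each factor was also compared after every array had been scaled to 1 median and 1 interquartile range, an alternative chosen after seeing the data.

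Rbpjl encodes the acinar form of the DNA-binding subunit of PTF1 and takes the place of Rbpj as acinar cells mature. It was the only factor of the 7 that rose at the study's threshold. The promoter of Rbpjl is shown because PTF1 acts on the genes of its own subunits. These are the 250 bases before the transcription start at chr2:164402944-164403193 on the plus strand (RefSeq, GRCm38.p6), printed 5′ to 3′. The leftmost capitals mark TGGGAA, which is a core of Rbpj family sites. The capitals in the middle mark the E box CACCTG, which reads as its reverse complement here because it matched on the other strand. The rightmost capitals mark AGATAA, the motif of GATA factors.
Rbpjl: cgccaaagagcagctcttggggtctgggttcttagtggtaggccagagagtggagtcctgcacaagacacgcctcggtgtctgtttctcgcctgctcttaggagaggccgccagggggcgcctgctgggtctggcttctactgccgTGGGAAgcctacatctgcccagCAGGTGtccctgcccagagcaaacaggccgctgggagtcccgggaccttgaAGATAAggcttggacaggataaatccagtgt
The TGGGAA match lay 104 to 99 bases before the start, the E box 82 to 77 bases and the GATA motif 31 to 26 bases. Both strands were searched for 7 motifs. These were the E boxes CACCTG and, as the form known for Bhlha15, CATATG, the Rbpj family sites TTTCCC and also TGGGAA, the Nr5a2 motif AAGGTCA, the GATA motif AGATAA and part of the Xbp1 and ATF6 element, CCACG. This last motif matched on the other strand at 106 to 102 bases, where it overlaps TGGGAA and is not capitalised. Of 32851 promoter windows of this length, 17.2% held CACCTG, 21.6% held TGGGAA, 9.99% held AGATAA, 28.3% held CCACG and 3.91% held both CACCTG and TGGGAA. A match describes the letters of the window and is not evidence of binding in these islets.

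The log2 signal of Rbpjl was 4.79, 4.36 and 4.61 in wild-type samples a, b and c and 7.002, 5.45 and 5.01 in mTR-/-G4 samples a, b and c. The genotypes did not overlap, and mTR-/-G4 sample a stood well above the other two. The means were 4.59 ± 0.22 and 5.82 ± 1.04 (SD, n = 3), a difference of 1.24 (SE 0.47, 95% confidence interval 0.13 to 2.34) or 2.36-fold (limma, adjusted p = 0.197). The SD of the mTR-/-G4 samples was nearly as large as the difference. Without mTR-/-G4 sample a the difference was 0.65 and still passed, and without mTR-/-G4 sample c it was 1.64. The call was lost without wild-type sample b (difference 1.12, SE 0.56) or c (1.25, SE 0.57), after quantile normalization (1.10, SE 0.49), after scaling the range (1.11, SE 0.49), with array weights (0.83, SE 0.42) and in the methods' t-test (1.24, SE 0.62). The digestive enzymes were also highest in mTR-/-G4 sample a, as the enzyme means above show. With the enzyme mean as a covariate the difference of Rbpjl was -0.41 (SE 0.78), in a fit where no wild-type sample reached the enzyme mean of any mTR-/-G4 sample.

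Ptf1a encodes the bHLH subunit that starts the acinar program in the embryonic pancreas and holds it in the adult. Its log2 signal was 3.64, 3.60 and 3.65 in wild-type samples a, b and c and 3.93, 3.87 and 3.67 in mTR-/-G4 samples a, b and c. The samples did not overlap, although mTR-/-G4 sample c was at nearly the wild-type level. Relative to the median of its array, mTR-/-G4 sample c (-1.50) was below wild-type samples b (-1.49) and c (-1.41). The difference was 0.19 (SE 0.11, 95% confidence interval -0.06 to 0.45, limma, adjusted p = 0.286), from 3.63 ± 0.029 to 3.82 ± 0.14 (SD, n = 3), and it did not pass. Ptf1a was dim, with -1.51 to -1.23 log2 units relative to the median of the array in every sample. After scaling the range the difference was -0.12, so its direction was not held. The Ptf1a promoter window held 1 TGGGAA match, 169 to 164 bases before the start, and no CACCTG.

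None of the 4 genes for other PTF1 subunits passed, and their median difference was -0.31. Rbpj, the widely expressed DNA-binding subunit that also carries Notch signals, was at 9.09 ± 0.22 and 9.08 ± 0.27 (SD, n = 3), a difference of -0.0050 (SE 0.17). Its 95% confidence interval was -0.42 to 0.41, and its genotypes overlapped, unlike those of its acinar paralog Rbpjl. Tcf3, which encodes the E proteins E12 and E47 that pair with Ptf1a and Bhlha15, differed by -0.14 (SE 0.14, limma, adjusted p = 0.514). The E protein genes Tcf12 and Tcf4, named after their values were seen, had every mTR-/-G4 sample below every wild-type sample. Tcf12 differed by -0.55 (SE 0.14, limma, adjusted p = 0.129) and Tcf4 by -0.48 (SE 0.11, limma, adjusted p = 0.116), both with an unadjusted p under 0.05 and under 1.5-fold. After median centring, with the enzyme covariate, without wild-type sample a and without mTR-/-G4 sample a, 1 of the 4 genes was called lower.

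Nr5a2 encodes a nuclear receptor (LRH-1) that binds enzyme genes together with PTF1. Its log2 signal was 4.49, 4.23 and 4.19 in wild-type samples a, b and c and 4.66, 4.52 and 4.28 in mTR-/-G4 samples a, b and c. The genotypes overlapped, since mTR-/-G4 sample c was below wild-type sample a. The difference was 0.18 (SE 0.14, 95% confidence interval -0.15 to 0.52, limma, adjusted p = 0.412) and became -0.031 after scaling the range. None of the 4 measured relatives and partners of Nr5a2 passed, with a median of 0.26, while after scaling the range 1 was higher and the median was 0.012. Hnf4a, a nuclear receptor of the acinar, islet and liver lineages, was at 6.997 ± 0.12 and 7.39 ± 0.058 (SD, n = 3) with no overlap. Its difference in the main fit was 0.39 (SE 0.10, limma, adjusted p = 0.143), under 1.5-fold. Nr0b1, which encodes a corepressor of the receptor family, differed by 0.029 (SE 0.12).

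Gata4 and Gata6 encode zinc finger factors that are needed together to form the pancreas, and Gata6 is also needed to keep adult acinar cells differentiated. The log2 signal of Gata4 was 4.82, 4.76 and 4.97 in wild-type samples a, b and c and 5.46, 5.22 and 5.17 in mTR-/-G4 samples a, b and c. That of Gata6 was 6.71, 6.88 and 6.37 in wild-type samples a, b and c and 7.28, 7.03 and 6.94 in mTR-/-G4 samples a, b and c. For both genes every mTR-/-G4 sample was above every wild-type sample. Relative to the median of each array this held for Gata4 but not for Gata6. There, mTR-/-G4 samples b (1.76) and c (1.77) were below wild-type sample b (1.79) for Gata6. Gata4 differed by 0.43 (SE 0.12, 95% confidence interval 0.15 to 0.72, limma, adjusted p = 0.145), or 1.35-fold. Gata6 differed by 0.43 (SE 0.16, 95% confidence interval 0.05 to 0.81, limma, adjusted p = 0.195), also 1.35-fold. In the main limma fit both had an unadjusted p under 0.05 and missed the threshold on the size of the change. For Gata6 this p was above 0.05 in the methods' t-test, after median centring and with array weights. It was also above 0.05 without wild-type sample a or c and without mTR-/-G4 sample a or b. After scaling the range the differences were 0.31 (SE 0.13) for Gata4 and 0.58 (SE 0.14) for Gata6, and with each sample left out in turn they ranged from 0.35 to 0.49 and from 0.29 to 0.54. With the enzyme mean as a covariate they were 0.30 (SE 0.28) and 0.05 (SE 0.34). None of the 5 measured GATA paralogs and cofactors passed (median 0.15, and -0.10 after scaling the range), and Gata2, a factor of blood and endothelial cells, differed by -0.067 (SE 0.14).

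**Figure D2:**
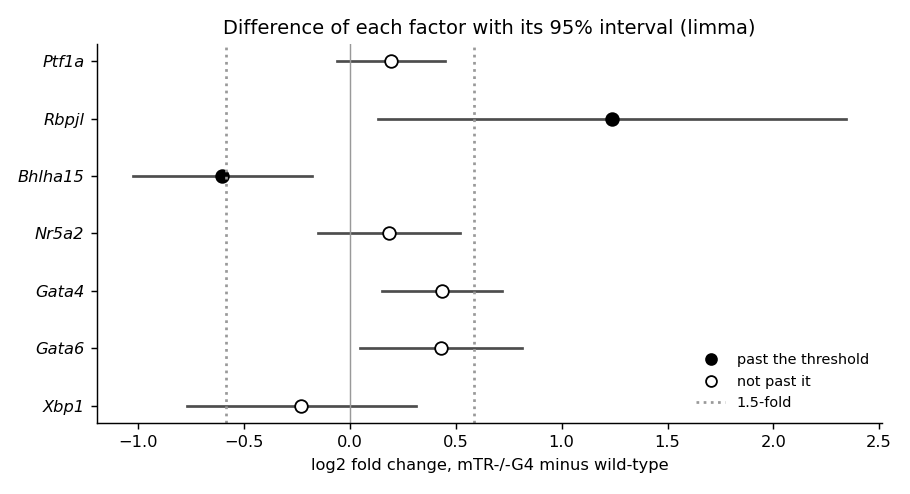
Difference in log2 signal between mTR-/-G4 and wild-type islets (x axis) for the 7 factors (y axis), with bars for the 95% confidence interval of limma, filled points past the study's threshold and dotted lines at 1.5-fold. The intervals of Rbpjl, Bhlha15, Gata4 and Gata6 lie to 1 side of 0, and those of Ptf1a, Nr5a2 and Xbp1 hold 0.

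Bhlha15, also called Mist1, is a bHLH factor of secretory cells that builds up the regulated exocytosis of acinar cells and is known in mouse as a target of Xbp1. It fell, while the digestive enzymes rose. Whole islets were measured, and which cells gave the signal of Bhlha15 was not tested. The promoter of Bhlha15 is shown because it differs from that of Rbpjl in the motifs it holds. These are the 250 bases before the start at chr5:144190036-144190285 on the plus strand (RefSeq, GRCm38.p6), with the CACCTG matches in capitals, both of them read on the other strand as in the Rbpjl promoter.
Bhlha15: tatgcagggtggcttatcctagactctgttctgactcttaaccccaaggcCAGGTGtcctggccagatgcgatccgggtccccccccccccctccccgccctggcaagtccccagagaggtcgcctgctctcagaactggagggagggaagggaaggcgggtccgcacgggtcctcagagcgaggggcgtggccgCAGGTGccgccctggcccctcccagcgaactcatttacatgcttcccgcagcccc
The E boxes lay 200 to 195 and 55 to 50 bases before the start. CCACG matched on the other strand 63 to 59 bases before the start and is not capitalised, and the other 5 motifs searched had no match in this window.

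The log2 signal of Bhlha15 was 8.59, 8.79 and 8.95 in wild-type samples a, b and c and 8.23, 7.83 and 8.45 in mTR-/-G4 samples a, b and c. Every mTR-/-G4 sample was below every wild-type sample, and mTR-/-G4 sample b was the lowest. The means were 8.77 ± 0.18 and 8.17 ± 0.31 (SD, n = 3), and the level fell by 0.60 (SE 0.18, 95% confidence interval -1.03 to -0.18, limma, adjusted p = 0.159), to 0.658 of the wild-type level. The change was close to the 1.5-fold limit. It was under this limit without wild-type sample c (-0.52) and without mTR-/-G4 sample b (-0.43). The same held after quantile normalization (-0.48), with array weights (-0.39) and after scaling the range (-0.25, SE 0.16). The direction of Bhlha15 was kept in all 19 alternatives. Those that change only the test, the threshold, the set of probes or the block leave the difference at -0.60 and could not turn it. The array of mTR-/-G4 sample b had the narrowest range of the 6. With the enzyme mean as a covariate the difference was -0.21 (SE 0.38).

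None of 3 measured genes known to need Bhlha15 in mouse acinar cells passed. For each of them the samples did not overlap between the genotypes, a pattern that 25% of all genes share upward and 12.2% downward. Rab3d, a GTPase of the zymogen granule membrane, was at 8.43 ± 0.12 and 7.99 ± 0.11 (SD, n = 3), a difference of -0.44 (SE 0.11, limma, adjusted p = 0.136). Atp2c2, a calcium pump of the secretory route, was at 4.54 ± 0.10 and 4.91 ± 0.12 (SD, n = 3), a difference of 0.37 (SE 0.11, adjusted p = 0.162). Gjb1, the remaining measured gene of the list, encodes a gap junction protein (connexin) and differed by 0.37 (SE 0.12). Rab3d is brighter than the median gene, where 61.8% of genes were negative. Atp2c2 and Gjb1 are dimmer, where 11.3% were negative.

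Xbp1 encodes a leucine zipper factor of the unfolded protein response that becomes active when its mRNA is spliced by Ire1 (the product of Ern1), and it is required in acinar cells and in other cells with heavy secretion, islet beta cells included. The probe gives 1 value for the whole gene and does not measure the splicing. Its log2 signal was 9.57, 9.77 and 9.54 in wild-type samples a, b and c and 9.85, 8.90 and 9.44 in mTR-/-G4 samples a, b and c. The genotypes overlapped, with mTR-/-G4 sample a the highest and sample b the lowest of all 6. The means were 9.63 ± 0.12 and 9.40 ± 0.48 (SD, n = 3), a difference of -0.23 (SE 0.23, 95% confidence interval -0.77 to 0.31, limma, adjusted p = 0.521). The direction turned without mTR-/-G4 sample b (0.019) and after scaling the range (0.27, SE 0.091). The promoter window of Xbp1, at chr11:5520391-5520640 on the plus strand (RefSeq, GRCm38.p6), is shown because besides Rbpjl it was the other window among the factors with both CACCTG and TGGGAA. The first run of capitals joins TTTCCC and, on the other strand, an E box CACCTG as well as a TGGGAA match. The later run is a TGGGAA match on the printed strand.
Xbp1: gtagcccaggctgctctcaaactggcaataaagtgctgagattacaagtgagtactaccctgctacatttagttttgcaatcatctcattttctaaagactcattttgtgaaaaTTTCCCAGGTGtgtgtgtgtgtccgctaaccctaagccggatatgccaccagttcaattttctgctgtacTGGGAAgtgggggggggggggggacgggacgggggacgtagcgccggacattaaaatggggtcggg
TTTCCC, at 136 to 131 bases before the start, overlaps the TGGGAA read on the other strand at 135 to 130 bases and shares its last base with the E box at 131 to 126 bases. A further TGGGAA lay at 66 to 61 bases. TTTCCC was held by 21.9% of the 32851 windows.

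Of 26 measured targets of Xbp1, chaperones and genes of the secretory route, 1 was lower, 0 were higher and 25 did not pass, with a median difference of -0.21. Derl3, which encodes a protein of endoplasmic reticulum degradation found in secretory cells, was at 8.26, 7.94 and 8.13 in wild-type samples a, b and c and 7.65, 6.93 and 7.31 in mTR-/-G4 samples a, b and c. It fell by 0.81 (SE 0.19, limma, adjusted p = 0.124), and its samples did not overlap. After scaling the range 0 of the targets were lower and 3 were higher, with a median of 0.17, so the direction of the list depended on the scaling. None of 10 sensors and other factors of the unfolded protein response passed (median -0.11), while after scaling the range 1 was higher and the median was 0.28. Ern1, which encodes the enzyme that splices Xbp1, was at 9.96 ± 0.022 and 9.79 ± 0.13 (SD, n = 3), a difference of -0.16 (SE 0.11, limma, adjusted p = 0.339). Ern1 has 2 probes of its own, and these values are from the brighter one. The paper lists Ern1 as lowered by more than 1.5-fold and does not state which probe gave that value.

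The products of the acinar program, which PTF1 and its partners switch on, were all higher. The 13 digestive enzymes rose by a median of 1.66, from 0.80 for Ctrb1, a chymotrypsinogen, to 2.73 for Cela1, an elastase. Pnliprp2, a pancreatic lipase, rose by 2.64 (SE 0.45) and Pla2g1b, a phospholipase, by 2.36 (SE 0.41). All 6 zymogen granule proteins rose, by a median of 2.26. Gp2, the major membrane protein of the granule, rose by 3.54 (SE 0.54, limma, adjusted p = 0.0929) and Cuzd1, another granule membrane protein, by 2.70 (SE 0.53). All 13 enzymes and all 6 granule proteins passed under quantile normalization, under range scaling, in the methods' t-test and with each sample left out, while neither Rbpjl nor Bhlha15 passed under all of these. The smallest enzyme difference, 0.80, was larger than those of the 6 factors other than Rbpjl. Ptf1a, Nr5a2 and Gata4 were dimmer than the median gene and the enzymes brighter. Dim genes have a compressed range, so the sizes of these differences are not on equal terms. A further 12 of the 25 enzymes listed have no probe of their own here and were not analysed.

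**Figure D3:**
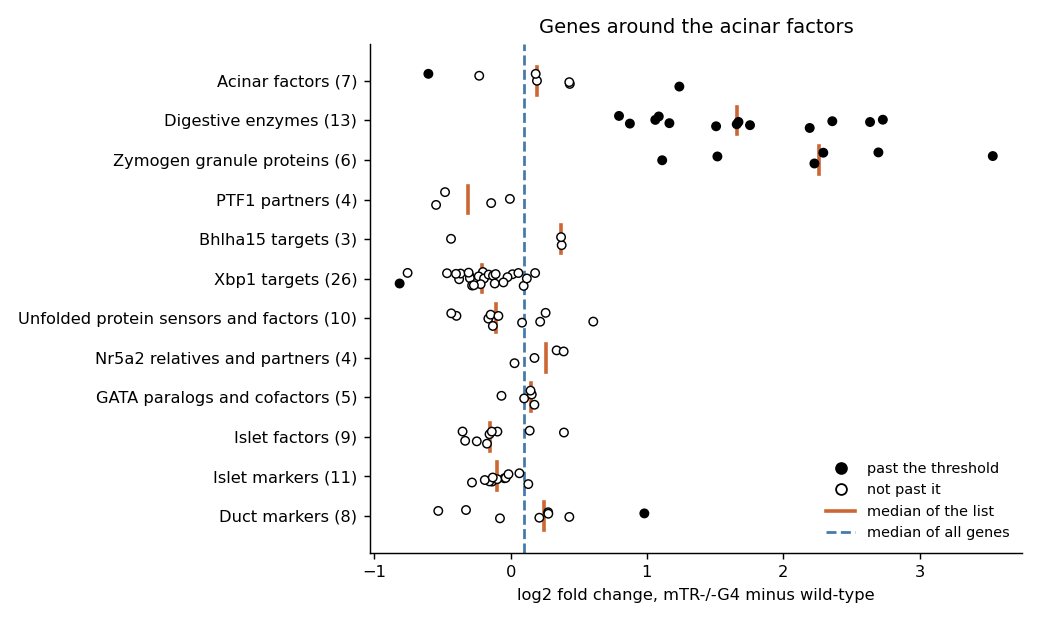
Difference in log2 signal between mTR-/-G4 and wild-type islets (x axis) for single genes of each list (rows, measured genes in parentheses), with filled points past the study's threshold, an orange bar at the median of the list and a dashed line at the median of all genes (0.10). The enzymes and granule proteins lie between 0.80 and 3.54, while 5 of the 7 factors lie between -0.23 and 0.43.

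Within the mTR-/-G4 genotype, sample a was the highest and sample c the lowest in the enzyme mean, and Ptf1a, Rbpjl, Nr5a2, Gata4 and Gata6 had the same order of samples. Bhlha15 and Xbp1, for which sample b was lowest, did not. Among wild-type samples, where sample a was again highest in the enzyme mean, 1 of the 7 factors (Nr5a2) had the order of the enzymes. These orders rest on 3 samples each and are a description.

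**Figure D4:**
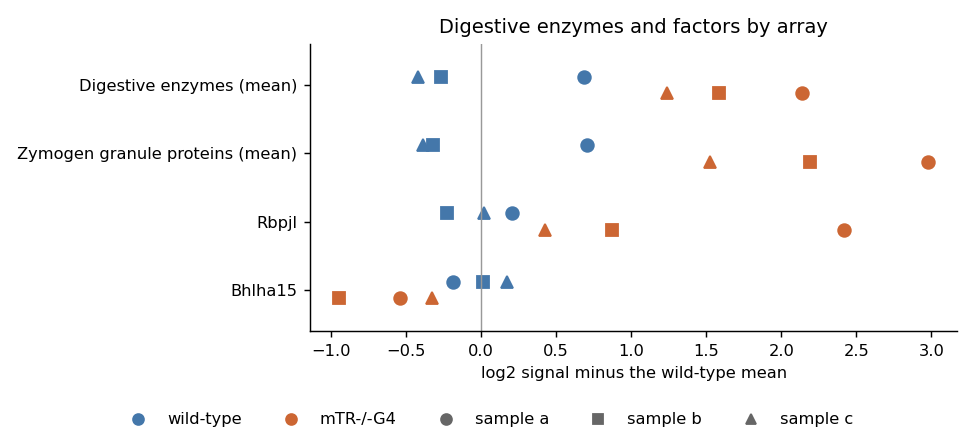
Log2 signal of each sample minus the wild-type mean (x axis) for the means of the digestive enzymes and of the zymogen granule proteins and for Rbpjl and Bhlha15 (rows), with 1 point for each sample. In mTR-/-G4 islets sample a is highest in the first 3 rows and samples a, b and c are all below the wild-type samples for Bhlha15.

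Markers and factors of the other cells in the samples were counted in the same way. Of 8 measured duct markers, 1 was higher, the mucin gene Muc1 (5.58 ± 0.70 and 6.56 ± 0.55, SD, n = 3, difference 0.98, SE 0.39, limma, adjusted p = 0.207), and the others did not pass (median 0.24). No duct marker was higher in the methods' t-test, after median centring (where 1 was lower) or without wild-type sample b or c or mTR-/-G4 sample a or b. The mean of the duct markers was 5.54 ± 0.23 and 5.70 ± 0.10 (SD, n = 3) with overlap (two-sided exact permutation test, p = 0.4). Of 8 endothelial markers 3 fell, beside 1.64% of all genes, among them Flt1, a receptor for vascular growth factor, by 0.71 (SE 0.18). All 8 had a negative difference (median -0.41), and their mean signal gave p = 0.2 in the two-sided exact permutation test. Of 11 stellate cell and pericyte markers the pericyte gene Rgs5 fell by 0.84 (SE 0.24). The count of endothelial markers that fell was 0 without mTR-/-G4 sample b, 1 without wild-type sample a and 1 after scaling the range, and none of the stellate markers passed after that scaling. None of 7 leukocyte markers passed (median 0.046). None of 10 pancreatic progenitor and duct factors passed (median -0.13, and 0.033 after scaling the range). Pdx1, which is shared by all pancreatic lineages in the embryo and kept in beta cells, was at 9.55 ± 0.21 and 9.22 ± 0.16 (SD, n = 3), and Prox1 at 10.68 ± 0.091 and 10.54 ± 0.18. Among 9 islet factors none passed (median -0.15), while after scaling the range 2 were higher and the median was 0.26, with Rfx6, a factor of endocrine differentiation, at 11.39 ± 0.087 and 11.22 ± 0.23. None of 12 bHLH factors of other cell types and Id proteins passed (median 0.18), while after scaling the range 1 was higher and the median was -0.0016, and Neurod1, the endocrine bHLH factor, was at 10.91 ± 0.16 and 11.05 ± 0.037. What part the other cell types had in the values of the acinar factors was not tested.

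For each factor the genes with the most similar profile over the 6 samples were found by the root-mean-square difference after centring each gene on its mean. This measure is not scaled by the spread of a gene, so its size is not compared between factors. Nearest to Rbpjl were Reg3g, an antimicrobial lectin of gut and inflamed pancreas (0.18), Itih4 (0.20) and the chemokine gene Ccl3 (0.22). Nearest to Bhlha15 were Tmem39a (0.039), Preb (0.051), which encodes a factor that starts vesicle budding from the endoplasmic reticulum, and Eml6 (0.058). Olfml2b (0.038), the epithelial factor gene Elf3 (0.049) and Ctxn1 (0.051) were nearest to Gata6, and Ndufa11b (0.050), Klf15 and Rpl32-ps to Gata4. Egr4 (0.032) was nearest to Ptf1a, Arrdc2 (0.035) to Nr5a2 and Api5 (0.054) to Xbp1. With 20204 genes and 6 samples such profiles describe likeness in these arrays only.

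**Figure D5:**
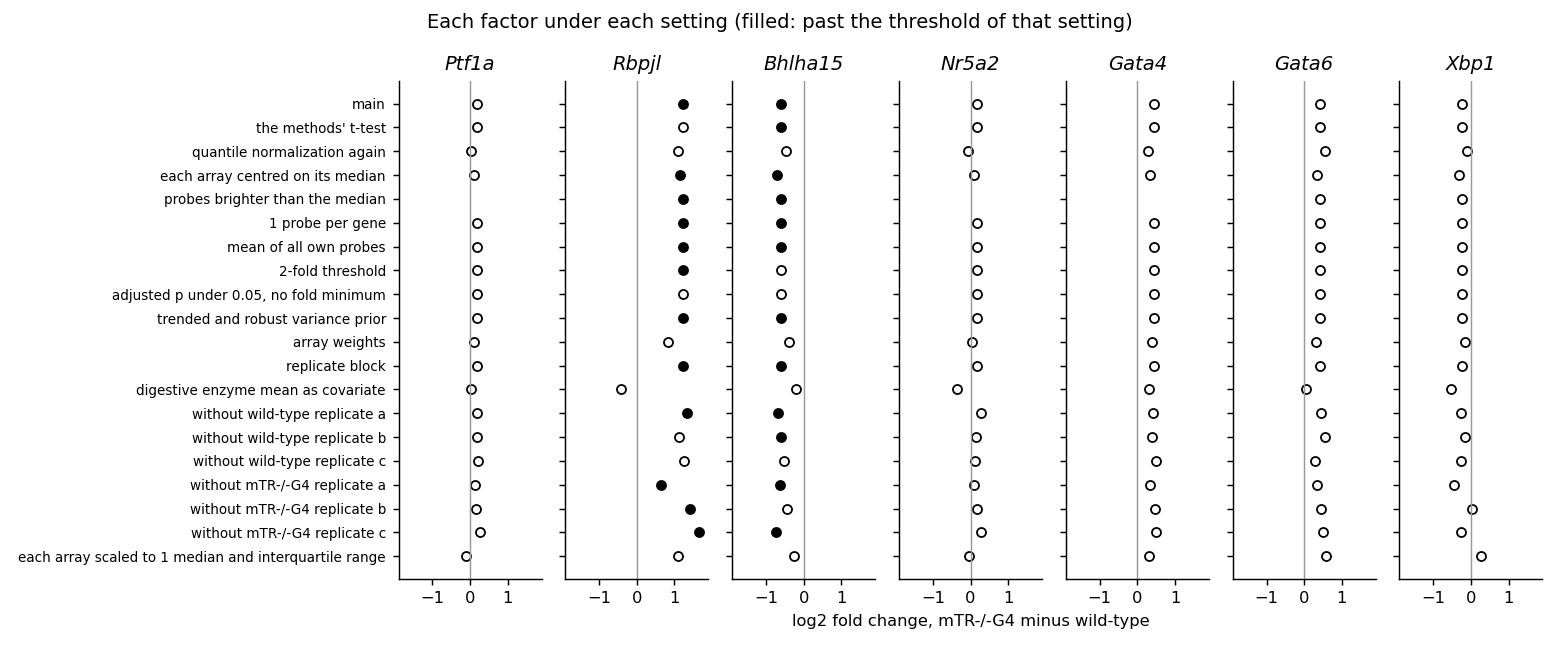
Difference in log2 signal between mTR-/-G4 and wild-type islets (x axis) of the 7 factors under each alternative (rows), with filled points past the threshold of that alternative and no point where a filter on dim probes left a factor out. Gata4 and Gata6 stay to the right of 0 and Bhlha15 to the left in all rows, while Rbpjl crosses 0 with the enzyme mean as a covariate (-0.41). Rows that change only the test, the threshold, the set of probes or the block repeat the difference of the main fit.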

How the data were processed

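Gene expression was measured on Affymetrix Mouse Exon 1.0 ST arrays in islets of 3 wild-type and 3 mTR-/-G4 mice. The authors deposited log2 signals, obtained by Robust Multichip Analysis of all arrays with Partek (build mm9 in the submitters' processing notes, no coordinates used), for 34502 transcript clusters, called probes here. The summary averages many probes of a gene, dim genes have a compressed range, and the array number limits precision. The platform annotation lists 1 symbol for 25362 probes, several for 2238 and none for 6902. Genes were named only from a probe of their own, the brightest where there were several. Genotypes were compared with limma 3.58.1 in R 4.3.3 (lmFit, eBayes, unpaired, all probes, prior degrees of freedom 3.14), with Benjamini-Hochberg adjustment over all probes. The methods name a t-test in general and none for the arrays.

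The factors and gene lists were chosen with earlier results of these data known. Named are all 7 factors, in each list up to 4 genes past the threshold with the largest change, or else up to 2 with the highest mean, and the nearest profiles. Ctrb1, Gjb1, Tcf12 and Tcf4 were added after their values were seen. Lists are given as counts and medians over genes, and for cell type lists the mean signal per sample was compared by an exact permutation test over samples. Promoters of 5 factors came from a RefSeq table. On simulated data 99 of 100 probes changed by 1 and 100 of 100 changed by 2 on the log2 scale passed the threshold, as did 403 of 34302 unchanged probes. The simulated arrays had independent noise and no difference in range or enzyme signal, so these rates need not hold for the real arrays. Figures were drawn with matplotlib 3.10.9. Alternatives were other normalizations, thresholds, variance priors, array weights (gene by gene), a replicate block, an enzyme covariate and each sample left out.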

Additional observations from a re-analysis of the deposited data

How the results depend on the processing

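With 3 samples per genotype a lost call does not show that a factor did not differ. The count of factors higher (1) was 0 in the methods' t-test, after quantile normalization, at an adjusted p under 0.05, with array weights, with the enzyme covariate and after range scaling (chosen after seeing the data), and 0 to 1 with each sample left out. The count of factors lower (1) was 0 after quantile normalization, at a 2-fold threshold, at an adjusted p under 0.05, with array weights, with the enzyme covariate and after range scaling, and 0 to 1 with each sample left out. The cause was not tested. The direction turned for Nr5a2 after quantile normalization (-0.054), with the covariate (-0.36) and after range scaling (-0.031), for Ptf1a after range scaling (-0.12), for Rbpjl with the covariate (-0.41) and for Xbp1 after range scaling (0.27) and with 1 sample left out (range -0.46 to 0.019). The median of all probes, 0.10, was 0.0066 after median centring, 0.015 after quantile normalization and 0.028 after range scaling. Probes higher and lower numbered 904 and 1244, against 1460 and 884 after range scaling, 523 and 1695 after centring, 507 and 851 in the methods' t-test and 1833 and 1649 without mTR-/-G4 sample a. A filter on dim probes left out Ptf1a, Nr5a2 and Gata4. Replicate letters are shared by the genotypes, and deviations of same-letter samples correlated at 0.04, -0.16 and 0.11. Those of different-letter samples correlated between -0.17 and 0.14. With 3 samples per genotype these values cannot decide whether the letters mark pairs. With the replicate block Rbpjl differed by 1.24 (SE 0.32) and Bhlha15 by -0.60, no factor changed its call, and 1013 probes were higher and 1388 lower (181 at an adjusted p under 0.05, against 1 without the block).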
